A study of Mus musculus with 3 samples.

Results

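Apela, Krtdap, Fgfbp1 and Agtr2 were followed over the early phase of reprogramming of mouse embryonic fibroblasts. They are 4 of the 50507 gene symbols in the deposited count table. They encode secreted proteins or a receptor, and they were selected on their levels, which set transfected control cells apart from Day00 cells or from siWdr5 cells. The levels in nt, Mock, Day00 and siWdr5 libraries therefore chose these genes, and they are given below as a description without a test of a difference between groups. No contrast tested below used those libraries, though they entered the filter, the scaling and the shared spread of the fit.

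The study asked how regulators of chromatin and transcription act on the first days of reprogramming. All cells were primary fibroblasts of wild-type BL6 embryos at passage 2, and all of them carried the inducible tet-OSKM (STEMCCA) lentivirus, which encodes Oct4, Sox2, Klf4 and c-Myc, together with rtTA. The virus was added at an MOI of 1. Reprogramming medium held 2 µg/mL doxycycline, 3 µM of the GSK3 inhibitor chiron, 0.25 µM of an Alk5 inhibitor, 50 µg/mL ascorbic acid and LIF. In the screen, cells were reverse transfected with 40 nM of a siRNA pool against 1 of 33 genes, with the non-targeting siRNA (nt) or without siRNA (Mock), then re-plated and induced, and RNA was taken on day 6. The time course (Day00 to Day06) came from cells that were re-plated without transfection. Each condition had 3 libraries, except Mock with 5 and siMtf1 with 2.

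Apela encodes a small secreted peptide, also called Elabela or Toddler, that binds the apelin receptor and is known from early embryos and pluripotent stem cells. Krtdap encodes a small secreted protein of differentiating keratinocytes. Fgfbp1 encodes a secreted carrier that frees fibroblast growth factors from heparan sulfate in the extracellular matrix. Agtr2 encodes the type 2 angiotensin II receptor, a G protein-coupled receptor known for high levels in fetal mesenchyme. A fibroblast that reprograms loses its mesenchymal program and gains epithelial and then pluripotency genes.

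The sequences just upstream of the 4 genes are shown so that their promoters can be compared letter by letter. They come from RefSeq on GRCm38.p6 and end at the base before the most upstream of 3 annotated starts, those of the RefSeq promoter, the RefSeq gene and the GENCODE gene, 5′ to 3′ on the strand of the gene. Capitals mark matches to 5 motifs searched on both strands of the 250 bases before the RefSeq start. The motif letters were chosen after the sequences had been seen, and a match is a description of letters, not of a binding site.
Apela, chr8:65037337-65037586, minus strand: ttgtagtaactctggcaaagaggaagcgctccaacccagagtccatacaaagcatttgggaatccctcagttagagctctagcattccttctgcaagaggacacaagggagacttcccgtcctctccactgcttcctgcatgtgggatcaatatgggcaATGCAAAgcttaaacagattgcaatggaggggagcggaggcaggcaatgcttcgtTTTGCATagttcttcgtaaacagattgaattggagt
Krtdap, chr7:30787655-30787895, plus strand: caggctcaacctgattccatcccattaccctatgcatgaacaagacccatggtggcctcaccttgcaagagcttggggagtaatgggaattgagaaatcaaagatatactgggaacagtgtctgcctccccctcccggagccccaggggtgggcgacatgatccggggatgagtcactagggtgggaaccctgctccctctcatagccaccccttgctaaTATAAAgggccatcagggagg
Fgfbp1, chr5:43981829-43982049, minus strand: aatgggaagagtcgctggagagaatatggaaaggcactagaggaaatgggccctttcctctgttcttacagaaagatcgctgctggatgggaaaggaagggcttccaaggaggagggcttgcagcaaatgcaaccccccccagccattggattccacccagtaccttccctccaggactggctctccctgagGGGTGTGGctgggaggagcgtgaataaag
Agtr2, chrX:21484374-21484543, plus strand: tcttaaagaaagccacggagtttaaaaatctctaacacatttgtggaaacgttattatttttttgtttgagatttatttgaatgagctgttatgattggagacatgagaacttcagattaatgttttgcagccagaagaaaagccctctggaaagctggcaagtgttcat

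The Apela sequence held the first 7 letters of the octamer motif of OCT factors, ATGCAAA, at 91 to 85 bases before the start and again, on the opposite strand, at 36 to 30 bases. A match was present in 4.12% of 32851 promoters, and 2 or more matches in 0.247%. The Krtdap sequence held the TATA box letters TATAAA at 30 to 25 bases before the start, as did 12.4% of all promoters at some position. The Fgfbp1 sequence held the KLF letters GGGTGTGG at 58 to 51 bases, a match found in 3.2% of all promoters. The SOX core AACAAT (9.42% of promoters) and the E-box CACGTG of MYC (6.02%) matched none of the 4 sequences, and Agtr2 had no match to any of the 5. No motif was shared by 2 of the 4 genes.

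The genes lie on 4 chromosomes (GENCODE vM21, GRCm38). Apela spans positions 65028417 to 65037336 of chromosome 8 on the minus strand, and its exons overlap those of the transcript Gm45886 on the same strand, so reads of both could not be told apart with certainty. Krtdap spans 30787896 to 30791097 of chromosome 7 on the plus strand, next to the epidermal genes Sbsn (30751471 to 30756134) and Dmkn (30763756 to 30781063). Fgfbp1 spans 43978858 to 43981779 of chromosome 5 on the minus strand. Agtr2 spans 21484544 to 21489164 of chromosome X on the plus strand.

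RNA was profiled by CEL-Seq2, a method in which the 3′ end of each captured transcript is tagged with a molecular identifier and counted once. The 127 libraries analysed held 29656 to 235292 counts, and the median depth was 64227, 63122 and 127079 counts in replicates 1, 2 and 3. The 4 genes were rare transcripts. Over all libraries they summed to 678 counts of Apela, 538 of Krtdap, 2032 of Fgfbp1 and 998 of Agtr2, and a single count was worth 4.52 to 40.4 CPM (counts scaled to a common library size), with a median of 16.2. Low levels below are therefore steps of single counts. All 12 markers of embryonic fibroblasts had counts, and their summed level fell from 6445 to 8173 CPM on Day00 to 2856 to 3798 CPM on Day06. It was 2075 to 3863 CPM in nt and Mock libraries and 5758 to 6141 CPM in siWdr5 libraries. The transcripts that the siRNAs target did not verify the labels. For none of 33 siRNAs was the target below its expected count by a 95% exact Poisson interval, although 23 lay below it, and for 25 of them fewer than 10 counts were expected. Hdac1 was above its expected count in siHdac1 libraries (18 counts against 9.95, ratio 1.81, interval 1.07 to 2.86). Wdr5 had 7 counts in siWdr5 libraries where 8.09 were expected (ratio 0.866, interval 0.348 to 1.78). A siRNA name below stands for the libraries labelled with it.

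In the libraries that chose the genes, all 4 were near the limit of detection on Day00 and counted in every nt and Mock library, except Krtdap, which had 0 counts in 1 Mock library. The libraries are given in the order of replicates 1, 2 and 3, with the 5 Mock libraries as 2, 2 and 1 of these replicates. For Apela, the Day00 libraries held 0, 0 and 8.28 CPM, the nt libraries 33.3, 44.9 and 114 CPM, the Mock libraries 51.6, 68.7, 115, 99.3 and 89.6 CPM, and the siWdr5 libraries 0, 0 and 9.49 CPM. Every nt and Mock library thus lay above every Day00 and siWdr5 library, and the siWdr5 level rested on 1 count in 3 libraries. Apela was the gene of the 4 with the lowest summed count in siWdr5 cells.

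For Krtdap, the Day00 libraries held 0, 0 and 0 CPM, which allows up to 13.8 CPM, and the nt libraries 66.6, 120 and 98.0 CPM. The Mock libraries held 51.6, 137, 0, 74.5 and 14.9 CPM, and the siWdr5 libraries 13.2, 0 and 9.49 CPM. The nt libraries stood apart from Day00 and siWdr5, whereas Mock reached from 0 to the highest value of the controls and overlapped siWdr5. Fgfbp1, the most abundant by counts, held 0, 0 and 8.28 CPM on Day00, 283, 344 and 237 CPM in nt, 232, 275, 259, 348 and 239 CPM in Mock and 172, 99.5 and 104 CPM in siWdr5. Its siWdr5 libraries lay between the groups, above all Day00 libraries and below all nt and Mock libraries. Agtr2 held 20.5, 0 and 0 CPM on Day00, 183, 165 and 147 CPM in nt, 103, 103, 317, 149 and 104 CPM in Mock and 66.0, 0 and 28.5 CPM in siWdr5. Here too the controls did not overlap Day00 or siWdr5, and 1 Mock library of replicate 2 was far above the others.

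**Figure D1:**
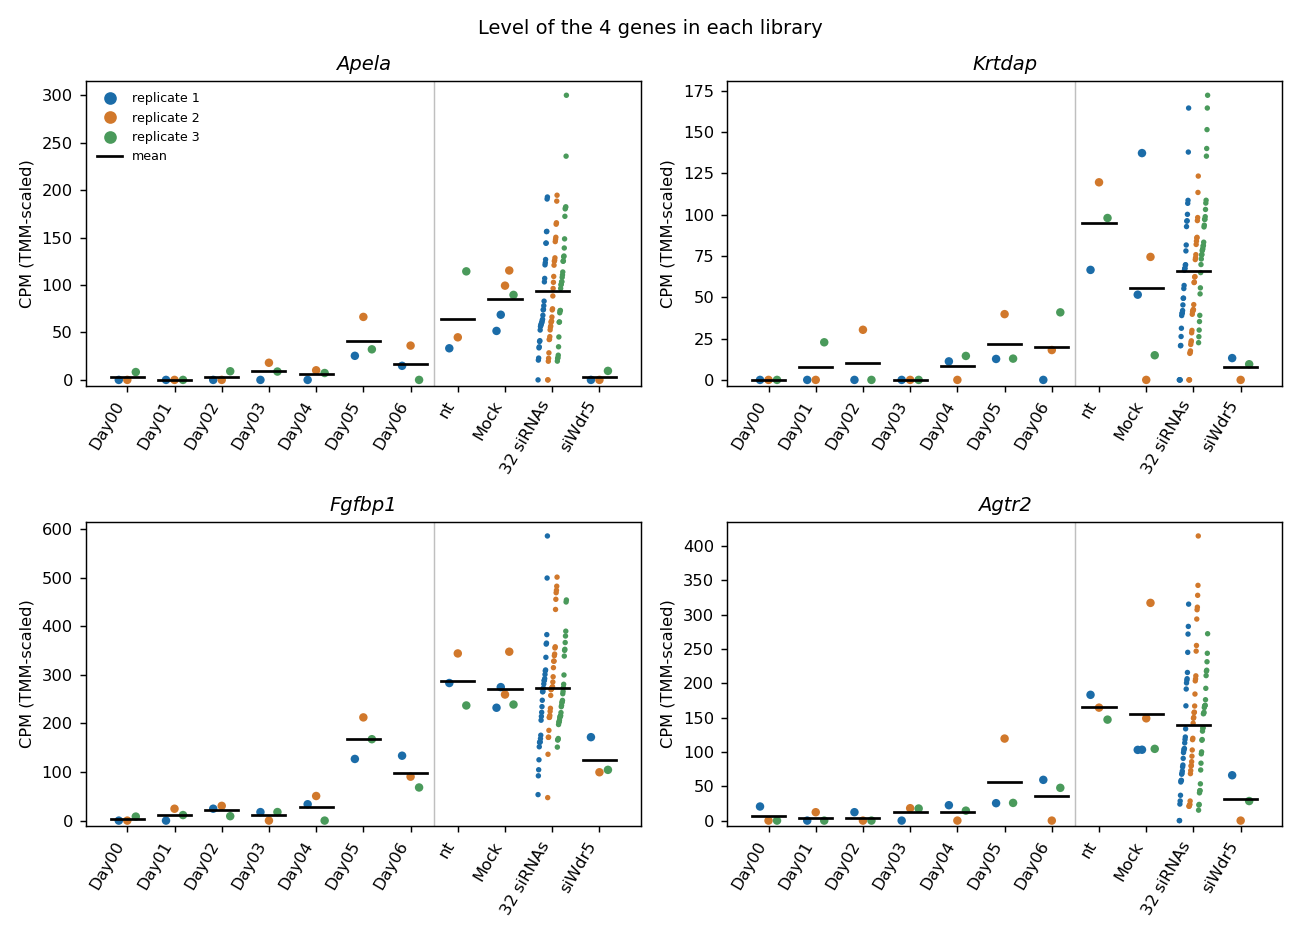
Level of each gene (CPM on TMM-scaled totals, linear axes) in each library, by day of the untransfected time course, nt, Mock, siWdr5 and the other 32 siRNAs together, with points coloured by replicate and a bar at the mean. For Apela, Fgfbp1 and Agtr2 the controls nt and Mock lie above Day00 to Day04, and siWdr5 libraries lie below the controls.

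Group means show the size of these gaps. Apela averaged 64.2 ± 43.8 CPM in nt (SD, n = 3), 84.9 ± 25.1 CPM in Mock (n = 5) and 3.16 ± 5.48 CPM in siWdr5 (n = 3). Krtdap averaged 94.8 ± 26.7, 55.7 ± 54.3 and 7.57 ± 6.81 CPM in the same groups. Fgfbp1 averaged 288 ± 53.7, 270.5 ± 46.2 and 125 ± 40.3 CPM, and Agtr2 165 ± 18.1, 155 ± 92.5 and 31.5 ± 33.1 CPM. Fgfbp1 was the gene that siWdr5 cells retained most, with 31 counts against 8 of Agtr2, 2 of Krtdap and 1 of Apela. In bulk RNA, fewer cells that express a gene and less RNA of it per cell cannot be told apart.

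The time course asked when the genes appear in cells that were not transfected. All 4 had at most 5 counts in any library until Day04, and the CPM of Fgfbp1 was higher in every library after it. Fgfbp1 held 0, 24.4 and 11.4 CPM on Day01, 24.5, 30.3 and 9.12 CPM on Day02, 17.5, 0 and 17.6 CPM on Day03 and 33.6, 50.6 and 0 CPM on Day04. It then held 127, 212 and 168 CPM on Day05 and 134, 90.4 and 68.2 CPM on Day06. Every library of Day05 and Day06 lay above every library of Day01 to Day04, a pattern found in 8 of 3013 genes tested (0.266%). The other 3 genes overlapped between these days.

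Apela had 0 counts in the 3 Day01 libraries, which allows up to 14.1 CPM, and held at most 18.1 CPM until Day04. On Day05 it held 25.4, 66.4 and 32.2 CPM and on Day06 14.8, 36.1 and 0 CPM. The Day05 mean was above the Day06 mean for each of the 4 genes, a difference that was not tested. For Krtdap the order was the other way on summed counts, with 6 on Day05 and 7 on Day06 (19.4 and 26.0 CPM). Agtr2 held 0 to 22.4 CPM from Day01 to Day04, then 25.4, 119 and 25.8 CPM on Day05 and 59.3, 0 and 47.7 CPM on Day06. Krtdap had the weakest course, with 0 to 30.3 CPM until Day04, 12.7, 39.8 and 12.9 CPM on Day05 and 0, 18.1 and 40.9 CPM on Day06. The Krtdap libraries of late days overlapped those of early days.

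The slope over Day01 to Day06 was tested by edgeR's quasi-likelihood test with Benjamini-Hochberg adjustment over all 3013 genes, on the log2 scale per day. Fgfbp1 (0.65 ± 0.11 SE, adjusted p = 2.68e-06) and Agtr2 (0.67 ± 0.20, adjusted p = 0.0121) rose over the days, where 7.24% of all genes rose and 4.61% fell (218 and 139 genes, or 165 and 202 with RLE size factors). Apela (0.65 ± 0.26, adjusted p = 0.0820) and Krtdap (0.35 ± 0.17, adjusted p = 0.177) did not pass. The median slope of all genes was 0.01. Without replicate 3 the slope of Agtr2 no longer passed (0.53 ± 0.24, adjusted p = 0.185). Over Day01 to Day04, a range chosen after the levels were seen, no slope of the 4 genes passed. That of Apela was 0.74 ± 0.50 (adjusted p = 0.481), that of Fgfbp1 0.18 ± 0.29 (adjusted p = 0.828), that of Agtr2 0.49 ± 0.45 (adjusted p = 0.646) and that of Krtdap -0.26 ± 0.28 (adjusted p = 0.714).

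A test of any difference among Day01 to Day06, which needs no straight line, called Fgfbp1 (adjusted p = 1.37e-10), Apela (adjusted p = 0.0156) and Agtr2 (adjusted p = 0.0276) but not Krtdap (adjusted p = 0.243). The same edgeR test called 32.9% of all genes. The Apela call was lost when any single replicate was left out, with adjusted p of 0.0724 to 0.212. That of Agtr2 was lost without replicate 2 or 3 (adjusted p = 0.101 and 0.118) and without the replicate block (adjusted p = 0.102). Over the same days the summed early reprogramming and pluripotency markers went from 0 to 11.4 CPM on Day01 to 75.0 to 217 CPM on Day06, and the summed fibroblast markers from 3645 to 4557 CPM to 2856 to 3798 CPM. Of the 11 early markers, Fut4, Nanog, Esrrb, Zfp42 and Utf1 were at 0 on Day06. Their part in the result was not tested.

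The comparison of siRNA cells with untransfected Day06 cells asked whether the high level of the controls was shared by transfected cells that had no part in the choice of genes. The 32 siRNAs other than siWdr5, with 95 libraries, had higher mean levels of the 4 genes than Day06. The siRNA mean was above the Day06 mean for 32 of 32 siRNAs in Apela, Krtdap and Fgfbp1 and for 31 of 32 in Agtr2, the exception being siBptf. For Apela, the 95 libraries ran from 0 over a median of 78.2 to 299.9 CPM, beside 14.8, 36.1 and 0 CPM on Day06. For Krtdap they ran from 0 over 67.5 to 172 CPM, beside 0, 18.1 and 40.9 CPM. The groups overlapped for each gene, but 80 of 95 siRNA libraries for Apela, 67 for Krtdap, 90 for Fgfbp1 and 75 for Agtr2 lay above all Day06 libraries. These counts of siRNAs and of libraries all rest on the same Day06 libraries, so they are not separate comparisons. Their share over all genes was not computed. Fgfbp1 ran from 47.3 over 266 to 586 CPM, beside 134, 90.4 and 68.2 CPM on Day06. Agtr2 ran from 0 over 122 to 415 CPM, beside 59.3, 0 and 47.7 CPM.

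By edgeR's quasi-likelihood test with Benjamini-Hochberg adjustment, the 4 genes were higher in siRNA cells, and so were 18.4% of all genes while 20% were lower (553 and 602 genes, or 433 and 750 with DESeq2). The log2 difference was 2.74 ± 0.60 for Apela (adjusted p = 8.14e-05), 1.34 ± 0.55 for Krtdap (adjusted p = 0.0403), 1.51 ± 0.29 for Fgfbp1 (adjusted p = 6.60e-06) and 1.53 ± 0.47 for Agtr2 (adjusted p = 0.00517). The median of all genes was -0.13. No untransfected library was high enough in Apela, Krtdap or Agtr2 to count towards the filter on low counts. These genes were thus tested only because transfected libraries were higher, so the direction of their calls was partly set by the filter. Day06 held only 3 counts of Apela, and the ratio of summed CPM was 8.46, with an exact 95% counting interval of 2.88 to 41.1. The Day06 library of replicate 3 held 0 counts of Apela, and within replicates 1 and 2 the ratio was 5.53 and 2.47. The ratio was 2.82 (1.36 to 7.06) for Krtdap, 3.04 (2.04 to 4.76) for Fgfbp1 and 3.29 (1.83 to 6.62) for Agtr2.

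The 4 calls were not equally firm. Krtdap no longer passed with RLE size factors (adjusted p = 0.0601), without the replicate block (0.0774), with DESeq2 (0.0789), without replicate 1 (0.191) or 2 (0.0630) or without a filter on low counts (0.169), and Apela no longer passed without replicate 3, whose Day06 library held no count of it (1.54 ± 0.75, adjusted p = 0.122), nor Agtr2 without replicate 2, whose Day06 library held none of it (1.13 ± 0.48, adjusted p = 0.0644). Against Day05, a choice made after Day05 was seen to be higher, Apela (1.09 ± 0.42, adjusted p = 0.0737) and Fgfbp1 (0.63 ± 0.23, adjusted p = 0.0556) did not pass, and in limma on the deposited log2 values only Apela did. In these siRNA libraries the summed fibroblast markers ran from 1138 to 4977 CPM with a median of 2849, beside 2856 to 3798 CPM on Day06, and the 7 keratinocyte markers had a median sum of 0 CPM. Of the keratinocyte markers, Krt5, Ivl, Lor and Trp63 were at 0 on Day06.

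The same comparison was read within each sequenced pool, where depth and batch are shared. For Apela, 31 of 32 siRNA libraries of replicate 1, 27 of 32 of replicate 2 and 31 of 31 of replicate 3 lay above the Day06 library of the same pool. The counts were 28, 26 and 26 for Krtdap, 28, 31 and 31 for Fgfbp1 and 24, 32 and 25 for Agtr2. Where the Day06 library held 0 counts, for Krtdap in replicate 1, Agtr2 in replicate 2 and Apela in replicate 3, these numbers only count the siRNA libraries with any count of the gene. In the other comparisons, too, a majority of the siRNA libraries lay above the Day06 library. Within a pool all siRNA libraries are set against the same untransfected library, so these counts are not separate comparisons. Against the Day05 library the count was lowest in replicate 2, with 17 of 32 for Apela, 20 for Krtdap, 26 for Fgfbp1 and 19 for Agtr2. Summed siRNA levels of Fgfbp1 were 1.92, 3.31 and 3.87 times the Day06 level in the 3 pools. For the other genes a ratio could be had in the pools with a Day06 count, and it was 2.97 and 2.18 for Krtdap in replicates 2 and 3 and 1.99 and 2.67 for Agtr2 in replicates 1 and 3.

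**Figure D2:**
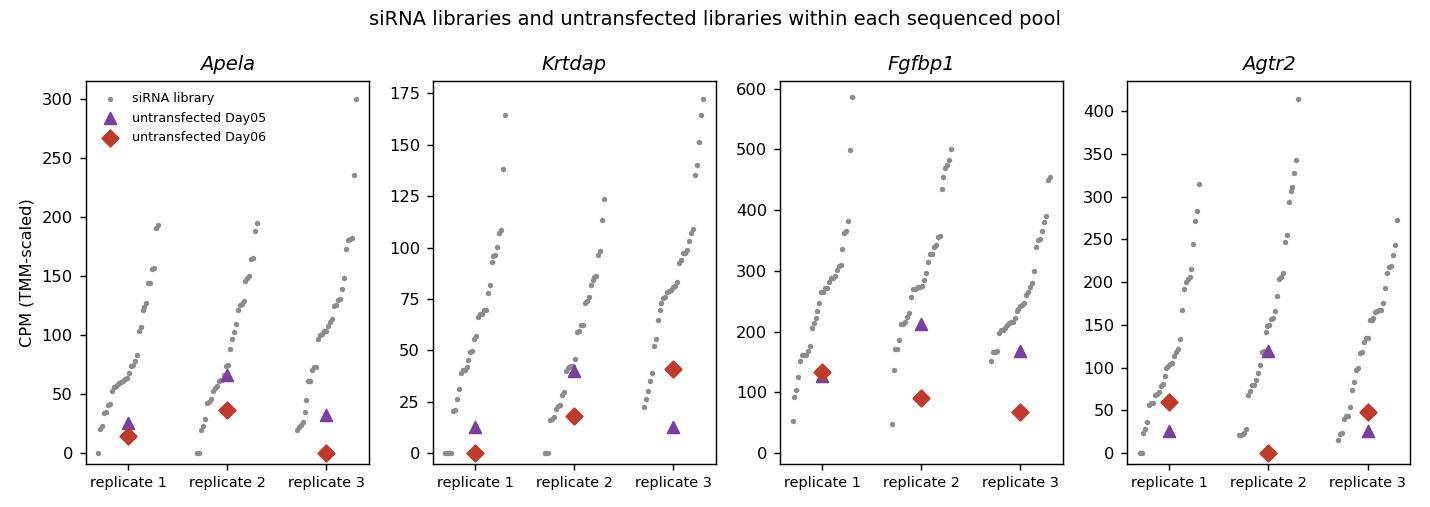
Level of each gene (CPM on TMM-scaled totals) in each siRNA library other than siWdr5 (grey), and in the untransfected Day05 and Day06 libraries, by replicate, which is the sequenced pool. Most grey points lie above the Day06 mark in each pool, and the Day05 mark of replicate 2 lies among them.

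Among the 32 siRNAs, 3 of the 4 genes varied beyond the spread of replicates. A test of any difference among them called Apela (edgeR, adjusted p = 2.40e-06), Agtr2 (adjusted p = 4.50e-05) and Fgfbp1 (adjusted p = 0.000969), but not Krtdap (adjusted p = 0.0904), where 37% of all genes were called. The mean level of Apela was lowest in siBrd8 (27.4 CPM) and was 179 CPM in siTdrd7. Mean levels ran from 26.3 CPM (siBrca1) to 142 CPM (siHat1) for Krtdap, from 156 CPM (siPrkdc) to 498 CPM (siTdrd7) for Fgfbp1 and from 12.7 CPM (siBptf) to 288 CPM (siSet) for Agtr2. The siRNA with the lowest mean was thus a different one for each gene. The Apela call was lost without replicate 3 (adjusted p = 0.222), and that of Fgfbp1 without replicate 3 (0.0553), without the replicate block (0.0722) and in limma on the deposited log2 values (0.233), where Agtr2 was lost too (0.134).

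Each siRNA was then set against the mean of the other 31, with p-values adjusted within a siRNA over all genes. Of the 128 pairs of a gene and a siRNA, 6 passed, beside 3.29% of all pairs of any gene, and 5 of them are described. siTdrd7 libraries held 156, 146 and 236 CPM of Apela against a mean of 90.5 CPM in the others, a log2 difference of 1.17 ± 0.30 (edgeR, adjusted p = 0.0149), where 1.46% of all genes were higher. In counts, siTdrd7 had 43 where 20.1 were expected from the other siRNA libraries of the same pools (ratio 2.14, 95% counting interval 1.55 to 2.88).

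Fgfbp1 was higher in siTdrd7 as well, with 586, 455 and 454 CPM against a mean of 264 CPM in the others. The log2 difference was 0.93 ± 0.20 (edgeR, adjusted p = 0.000868), and 107 counts stood against 58.2 expected (1.84, 1.51 to 2.22). Tdrd7 encodes a Tudor domain protein of RNA granules, and its own transcript had 0 counts in these libraries where 0.279 were expected, so the label could not be checked. The siTdrd7 libraries held 58.6, 72.9 and 43.7 CPM of Agtr2 against a mean of 141 CPM in the others, a difference that did not pass (-1.17 ± 0.47, adjusted p = 0.216). The 3 siTdrd7 libraries also held 619 to 1015 CPM of the summed epithelial list and 1699 to 2149 CPM of the fibroblast list, beside medians of 395 and 2849 CPM over all siRNAs. The early reprogramming and pluripotency list summed to 200.4 to 371 CPM in them, beside a median of 119 CPM. The part of these lists in the results was not tested.

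Krtdap was higher in siHat1, with 165, 96.5 and 165 CPM against a mean of 63.1 CPM in the others. The difference was 1.22 ± 0.31 (edgeR, adjusted p = 0.0152), where 1.19% of all genes were higher, and 56 counts stood against 26.1 expected (2.15, 1.62 to 2.79). Hat1 encodes a histone acetyltransferase. Its own transcript had 106 counts in the libraries labelled siHat1 where 99.5 were expected (1.07, 0.872 to 1.29). The ratios of observed to expected counts in siHat1 were 1.28 for Apela, 1.42 for Fgfbp1 and 1.43 for Agtr2, and none of these 3 passed the test. The epithelial list summed to 515 to 607 CPM in siHat1, beside a median of 395 CPM over all siRNAs. The early reprogramming and pluripotency list summed to 139 to 267 CPM, beside a median of 119 CPM. The part of these lists in the result was not tested. In siPrmt5 the ratios lay below 1, at 0.391 for Apela, 0.372 for Krtdap, 0.588 for Fgfbp1 and 0.701 for Agtr2, and none passed. Neither pattern was particular to its siRNA. The ratios of all genes followed here were above 1 in siPhf1 too, and below 1 in siPou5f1, siMtf1, siBptf and siEp300.

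Agtr2 was the gene with called decreases. siBptf libraries held 0, 22.8 and 15.2 CPM, which is 2 counts where 19.4 were expected (0.103, 0.0125 to 0.372), and the log2 difference was -3.06 ± 0.79 (edgeR, adjusted p = 0.00974), where 2.09% of all genes were lower. siEp300 libraries held 28.6, 142 and 22.6 CPM, or 17 counts where 50.0 were expected (0.340, 0.198 to 0.544). The difference was -1.32 ± 0.41 (adjusted p = 0.0152), where 6.47% of all genes were lower, and the library of replicate 2 stood at the level of the other siRNAs. Bptf is a subunit of a nucleosome remodelling complex and Ep300 an acetyltransferase that acts as a coactivator. Neither target was lower in the libraries labelled with it, with ratios of 1.11 (0.555 to 1.99) for Bptf and 1.40 (0.814 to 2.24) for Ep300. Apela, Krtdap and Fgfbp1 did not pass in siBptf or siEp300. The fibroblast list summed to 1459 to 2031 CPM in siBptf and 2908 to 4632 CPM in siEp300, beside a median of 2849 CPM over all siRNAs, and its part in these results was not tested.

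The 6 calls were fragile. Without the replicate block, only that of Fgfbp1 in siTdrd7 remained of them (adjusted p = 0.0281), without replicate 1 there were 2 calls, and without replicate 3, the deepest pool, edgeR called 0 pairs of the 3 genes that could be fitted (14 at an unadjusted p under 0.05, beside 26 with all libraries), while DESeq2 on all libraries called 4. The Agtr2 difference of siEp300 was -2.20 ± 0.52 without replicate 2 and -0.55 ± 0.50 without replicate 3.

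**Figure D3:**
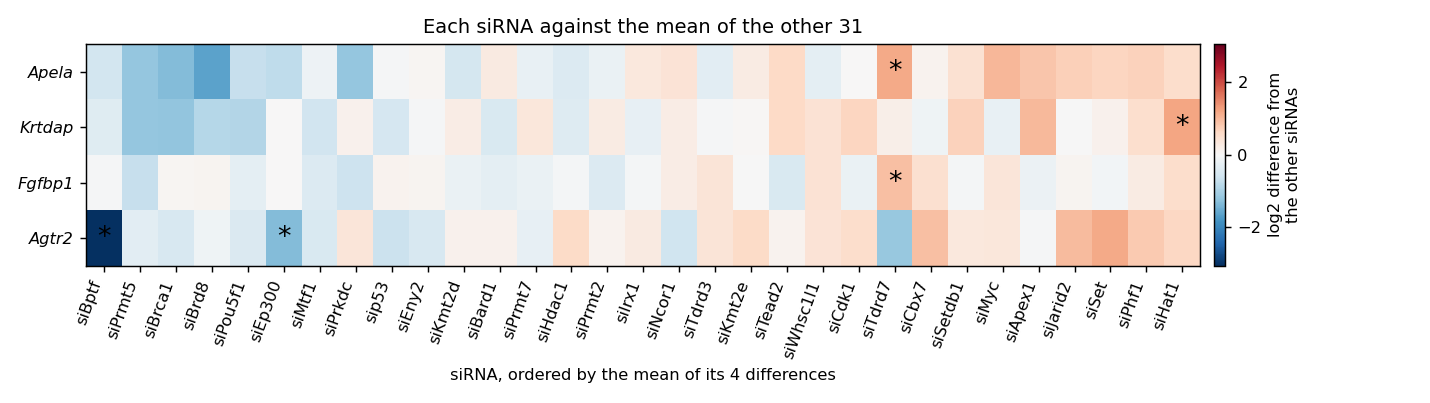
Log2 difference of 31 of the 32 siRNAs from the mean of the other 31 for each gene, as a colour scale from lower to higher, with siRNAs ordered by the mean of their 4 differences and marks on the 5 pairs shown that passed the test. The marks are siTdrd7 for Apela, siHat1 for Krtdap, siTdrd7 for Fgfbp1 and siBptf and siEp300 for Agtr2.

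Placed in 1 order with the other conditions, untransfected days stood at the low end for each gene. Of 42 condition means, nt was at place 25 for Apela, 5 for Krtdap, 13 for Fgfbp1 and 11 for Agtr2, and siWdr5 at places 39, 40, 36 and 36. The siRNA mean exceeded the highest mean of any day, that of Day05, for 29 of 32 siRNAs in Apela, 32 in Krtdap, 30 in Fgfbp1 and 31 in Agtr2. It exceeded the nt mean for 23, 4, 12 and 10 siRNAs. In each of these counts all siRNAs share the same libraries of Day05 or of nt, so they are not separate comparisons. Neighbours in this order mostly could not be separated. Among the 41 neighbouring pairs of conditions, the libraries did not overlap in 1 pair for Fgfbp1 (Day06 above Day04) and overlapped in all pairs of the other genes.

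**Figure D4:**
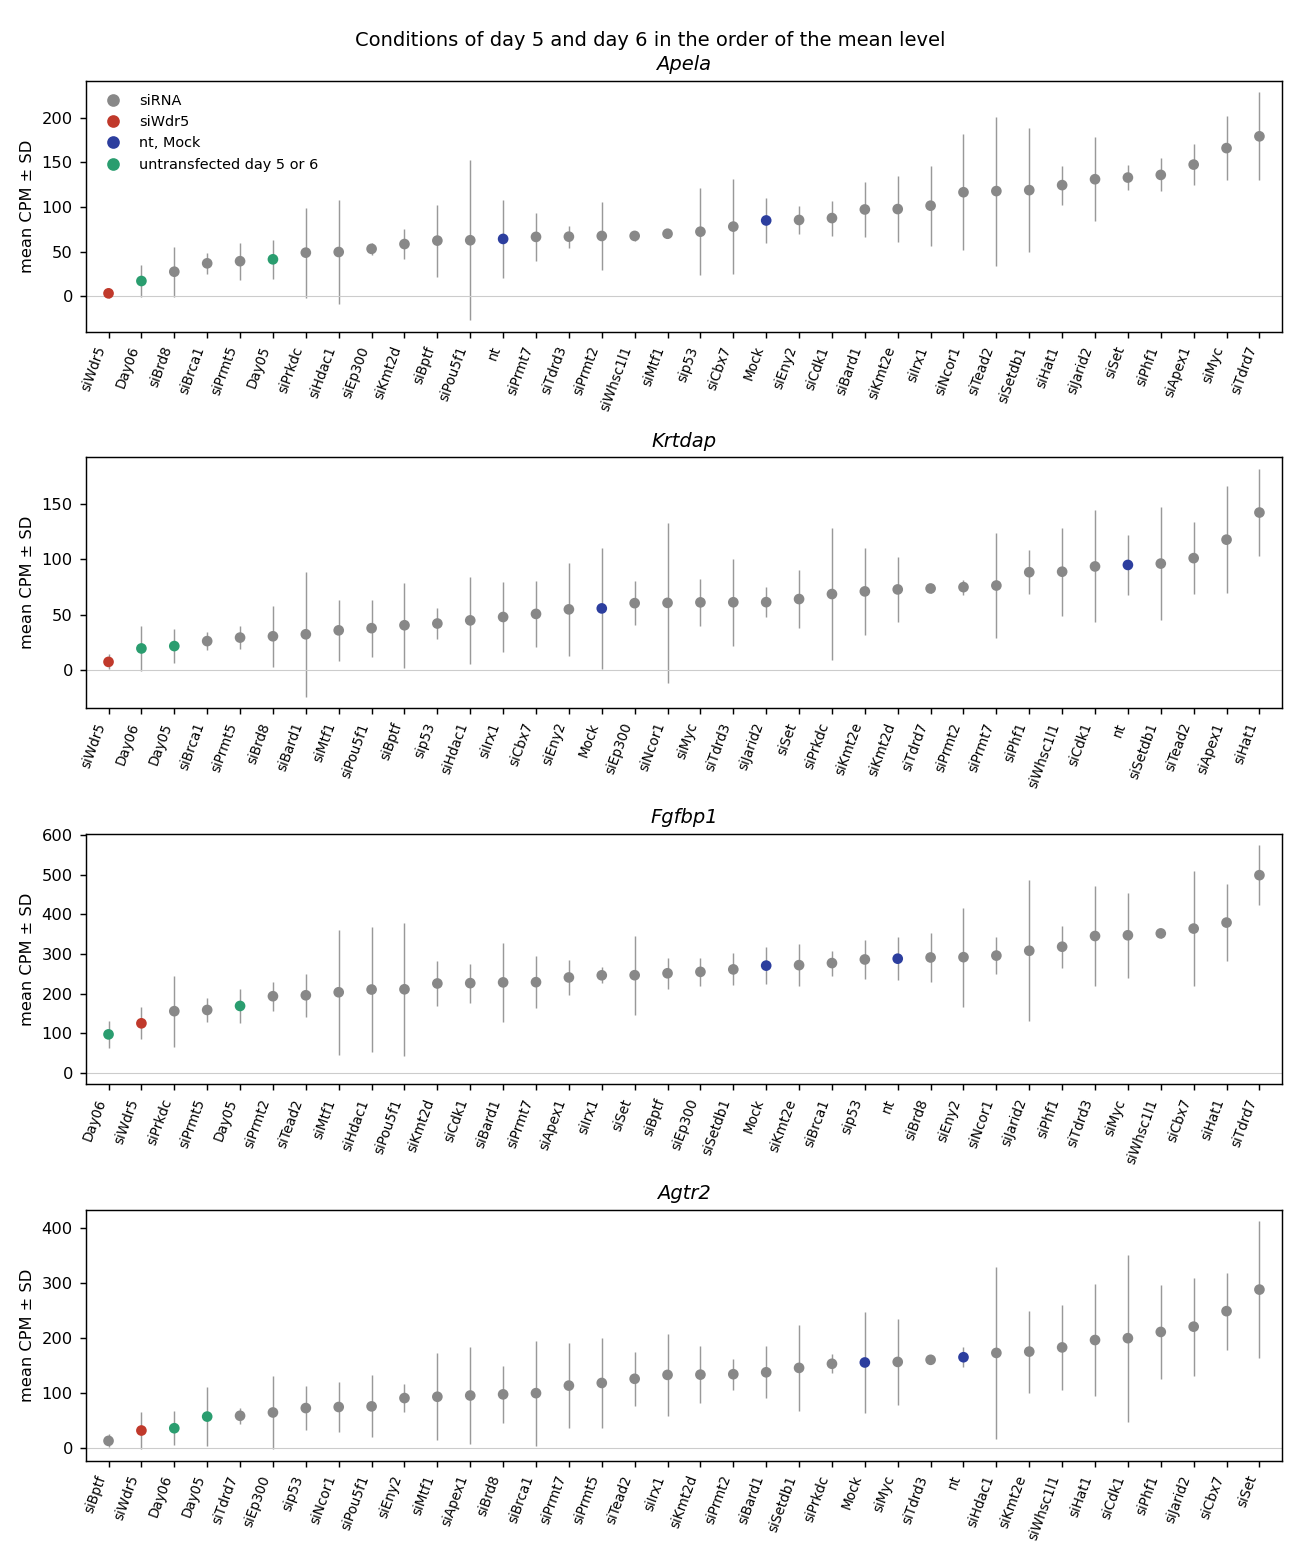
Mean level (CPM, points) with SD (bars) of each gene in nt, Mock, siWdr5, 31 of the 32 other siRNAs and untransfected Day05 and Day06, sorted from low to high and coloured by kind of condition. Untransfected and siWdr5 conditions sit at the low end, the controls lie among the siRNAs, and neighbouring bars overlap.

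The likeness of the 4 genes was described by the correlation of their mean log2 CPM over conditions, which share libraries, depth and the gap between untransfected and transfected cells. The 42 conditions include Day00, nt, Mock and siWdr5, whose levels chose the genes, so a high r over them follows from the choice. Over all 42 conditions r ran from 0.742 (Apela and Agtr2) to 0.830 (Apela and Krtdap). Over the 32 siRNAs alone it was lower, from 0.106 (Fgfbp1 and Agtr2) to 0.603 (Apela and Krtdap). The genes most like Apela over 42 conditions were Hat1 (r = 0.831), Krtdap (0.830) and the histone variant gene H2afz (0.822). Those most like Krtdap were the chaperone gene Hsp90aa1 (0.844), Hat1 (0.832) and Apela, those most like Fgfbp1 were Sub1 (0.900), the ribosomal protein gene Rps24 (0.899) and Npm1 (0.891), and those most like Agtr2 were Hsp90aa1 (0.844), Gm8292 (0.832) and Gm12346 (0.806). Over the 32 siRNAs these correlations fell to 0.396 to 0.603.

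The partners of the 4 proteins were mostly scarce. Aplnr, the receptor of Apela, had 0 counts in all 127 libraries, which allows up to 0.330 CPM over the libraries together. Apln, the other ligand of that receptor, had 112 counts and averaged 15.6 CPM in siRNA libraries and 9.49 CPM on Day06. In the angiotensin pathway, the precursor gene Agt had 3 counts, Ren1 and Ace had 0, and the type 1 receptor genes Agtr1a and Agtr1b had 2 and 1. Agtr2 was thus counted where the ligand source and the other receptors were at or near 0. The (pro)renin receptor gene Atp6ap2 (433 counts) and the peptidase gene Mme (171) were present.

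Most of these pathway genes were too low for the filter, so the lists below come from the same edgeR fit without it, over 30778 genes. Of 14 fitted genes of the renin-angiotensin list, 0 were called in the slope over Day01 to Day06 and 0 in siRNA cells against Day06 (0 and 3 at an unadjusted p under 0.05). Of all genes in that fit, 0.52% rose and 0.208% fell over the days, and 1.07% were higher and 2.85% lower in siRNA cells, and beside these shares 0 of 14 is no result about the list. The median slope of the list was 0.03 per day and its median difference 0.05, beside medians of -0.00 and 0.07 over all genes. The 1 gene of the list that passed the filter was Ctsa, which encodes the lysosomal carboxypeptidase cathepsin A, with a difference of -0.85 ± 0.40 between siRNA cells and Day06 (adjusted p = 0.0758).

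For Fgfbp1, the growth factors that it carries were rare, with 85 counts of Fgf2, 100 of Fgf7 and 133 of Fgf10, and the receptor Fgfr1 (390 counts) was more often counted than Fgfr2 (118), Fgfr3 (7) or Fgfr4 (0). Of 24 fitted genes of FGF carriage and reception, 2 heparan sulfate proteoglycan genes were lower in siRNA cells than on Day06, namely Sdc2 (-0.94 ± 0.26, adjusted p = 0.0125) and Hspg2, which encodes perlecan (-2.29 ± 0.53, adjusted p = 0.00133). In that fit 2.85% of all genes were lower and 1.07% higher, and the median was -0.80 over the list and 0.07 over all genes. Most genes of that fit were too low for the filter. Over the 3013 genes past it 20% were lower and the median was -0.13. Over Day01 to Day06, 0 of the 24 were called (0 at an unadjusted p under 0.05), with a median slope of 0.02. With the filter in place, Sdc2 was the 1 gene of the list tested and was lower as well (-0.91 ± 0.24, adjusted p = 0.00108).

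Of 37 fitted genes of the epithelial list, 4 rose over Day01 to Day06, where 0.52% of all genes did and 0.208% fell. They were Krt8 (0.80 ± 0.22 per day, adjusted p = 0.0318) and Dsp (0.81 ± 0.20, adjusted p = 0.0101), a keratin and a desmosome gene, and Cdh1 (0.79 ± 0.22, adjusted p = 0.0443) and Epcam (0.92 ± 0.24, adjusted p = 0.0278), which encode surface proteins of epithelial cells. The shares of this fit are over 30778 genes, most of them too low for the filter, so these 4 are not set against genes of like counts. Among the 3013 genes past the filter 7.24% rose. The 1 of them on the list, Perp, was not called for the slope by edgeR (0.17 ± 0.08, adjusted p = 0.143). Against Day06, edgeR called 0 of the 37 higher in siRNA cells, 5 of them differed in either direction at an unadjusted p under 0.05, where 1.07% of all genes were called higher and 2.85% lower, and Dsp (-1.54 ± 0.47, adjusted p = 0.0323) and Sprr2a1 (-2.07 ± 0.55, adjusted p = 0.00948) were lower. Sprr2a1 has near-identical copies, and its counts are uncertain. The median difference of the list was -0.40. The chromosomal neighbours of Krtdap gave no call in this comparison. Dmkn had 183 counts, with 28.3 CPM on Day05, 26.5 CPM on Day06, 10.9 CPM in nt and 2.99 CPM in Mock, and its difference between siRNA cells and Day06 was -0.23 ± 0.57 (adjusted p = 1). Sbsn had 21 counts in all. The keratinocyte genes Krt5, Krt1 and Krt10 had 1, 5 and 13 counts.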

How the data were processed

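The deposited table holds UMI-corrected counts per gene symbol, which the authors made with Bowtie2 (mm10) and the CEL-Seq2 pipeline on GENCODE vM13. The second deposited table holds log2 values (log2 CPM, batch regressed by the authors) and served 1 alternative. Each of the 3 samples is a sequenced pool of barcoded libraries, and each library's condition was read from its column name. Both Mock columns of a replicate share a name and were kept. Of 129 libraries, 127 with at least 10000 counts were analysed, at 29656 to 235292 counts, and 2 with 6403 and 7981 were left out. The study describes siRNA transfections in triplicate and its sequencing replicates, those of the time course included, as independent. Whether they came from separate fibroblast preparations is not given in the sources used here, and p-values measure the spread between these libraries. The counts of 131 pairs of libraries of 1 condition differed beyond sampling noise (chi-square per gene 1.30 to 5.69), and all were counted as separate libraries.

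edgeR 4.0.16 (R 4.3.3) was fitted to all 127 libraries with TMM scaling, filterByExpr by condition, and terms for condition and replicate. It tested 3013 genes, the 4 members included (83 residual degrees of freedom, common dispersion 0.0158), by the quasi-likelihood test with Benjamini-Hochberg adjustment at 0.05. Each standard error is the log2 value divided by the root of its F statistic. A gene as low on the first days as these 4 passes the filter only through the libraries in which it is higher. Apela, Krtdap and Agtr2 passed it only through transfected libraries. CPM use TMM-scaled totals. Intervals are exact Poisson or binomial 95% intervals, floors use 3 counts, and both cover counting error only. The replicate number pairs libraries because it is the sequenced pool: deviations from condition means had a median correlation of 0.0981 within a number and -0.0685 between numbers.

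The 4 genes and all lists (apelin, angiotensin, FGF, epithelium, and markers of fibroblasts, early reprogrammed cells, keratinocytes, endothelium, macrophages and muscle) were chosen with earlier results of these data known. Genes named besides the 4 members are listed genes past the threshold, up to 8 a list, the 3 genes most alike in log2 CPM (prior count 2), and the siRNAs that passed or else the highest and lowest. Partners and neighbours of the 4 genes, and siPrmt5 with the siRNAs named beside it, were named outside this rule. Values of 1 siRNA are not reported here, although its libraries stayed in every fit. Listed genes that did not pass the filter come from the fit without it (30778 genes). The model code was tested on simulated data. Alternatives were RLE size factors, DESeq2 1.42.0, limma 3.58.1 on the deposited log2 values, no filter, no replicate block, libraries of at least 40000 counts and leaving out each replicate. Chosen after seeing the data were Day05 in place of Day06, shorter day ranges and leaving out siBard1 and siBrca1.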

Additional observations from a re-analysis of the deposited data

Results flagged for a closer look

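Of 4 groups of 4 to 10 libraries (the 5 Mock libraries, for each gene), 1 held a library set apart from the others by Dixon's ratio at the 95% level. The Mock library of replicate 2 with the highest Agtr2 level held 317 CPM, on 11 counts, while the other 4 Mock libraries held 103 to 149 CPM. Chance sets apart about 1 in 20 such groups, and the ratio describes the spread within Mock, not a difference between groups. The Mock libraries helped to choose the genes and entered no contrast.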

How the results depend on the processing

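No result changed direction except the Krtdap slope over Day01 to Day04 (-0.26). With RLE size factors the log2 difference of Krtdap from Day06 was 1.24, and in DESeq2 1.31, and neither passed. Without the replicate block, 214 genes were called for the slope, 562 among days, 546 among siRNAs and 1296 pairs of a gene and a siRNA (357, 992, 1115 and 3175 with it), and 1 of the 6 member pairs remained. Agtr2 among days (adjusted p = 0.102), Fgfbp1 among siRNAs (0.0722) and Krtdap against Day06 (1.30) were lost there. The block changed no other call of the 4 genes outside these and the pairs. Without a filter, 224 and 595 genes were called for the slope and among days, and Apela among days (0.122) and Krtdap against Day06 (1.31) were lost. With limma on the log2 table, calls numbered 610 among days, 382 against Day06, 617 among siRNAs and 1034 pairs, 2 of them of the members. There the Apela slope passed (0.33), while the Agtr2 slope (0.37), Agtr2 among days (0.271), Krtdap (0.95), Fgfbp1 (0.89) and Agtr2 (1.28) against Day06, and Fgfbp1 (0.233) and Agtr2 (0.134) among siRNAs did not. Against Day05, 337 genes were called, and Apela was at 1.09 and Fgfbp1 at 0.63. Over Day01 to Day05 the Apela slope was 0.96 and passed. Over Day01 to Day04, 164 genes were called and the slopes of Fgfbp1 (0.18) and Agtr2 (0.49) did not pass. On plain totals Agtr2 in nt was 136 CPM and Fgfbp1 in Mock 214 CPM. The causes of these shifts were not tested.

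When each replicate was left out, the slope called 204 to 278 genes and gave Agtr2 0.53 to 0.91. Among days, 475 to 752 genes were called, with adjusted p of 0.0724 to 0.212 for Apela and 0.0153 to 0.118 for Agtr2. Against Day06, 586 to 1046 genes were called, with 1.54 to 3.86 for Apela, 0.99 to 1.42 for Krtdap and 1.13 to 1.82 for Agtr2. Among siRNAs, 519 to 821 genes were called, with adjusted p of 1.32e-05 to 0.222 for Apela and 0.00157 to 0.0553 for Fgfbp1. Pairs of any gene numbered 1088 to 2163, and pairs of members 0 to 6. Krtdap could not be fitted without replicate 3, where it did not pass the filter. At least 40000 counts and leaving out siBard1 and siBrca1 lost no call of the 4 genes outside the pairs. Depth limits each single library to steps of whole counts, and the Day06 level of Apela rests on 3 counts.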

Other observations

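Besides the 4 genes, markers of embryonic fibroblasts were called in both directions. Of 9 tested, the proteoglycan genes Dcn (0.58 ± 0.09 per day on the log2 scale, adjusted p = 2.40e-08) and Lum (0.59 ± 0.12, adjusted p = 3.64e-05) rose over Day01 to Day06, while Col1a1 (-0.16 ± 0.04), Vim (-0.17 ± 0.03) and Prrx1 (-0.21 ± 0.04) fell (edgeR, adjusted p of 0.00180, 5.06e-06 and 1.42e-05), where 7.24% of all genes rose and 4.61% fell. Against Day06, siRNA cells held more Lum (1.12 ± 0.30, adjusted p = 0.00152) and less Col1a1 (-0.88 ± 0.19, adjusted p = 7.93e-05) and Col1a2 (-0.92 ± 0.16, adjusted p = 4.84e-07), 2 collagen genes, where 18.4% of all genes were higher and 20% lower. The median difference of the 9 was -0.15, beside -0.13 over all genes. The macrophage list summed to 124 to 226 CPM on Day00, 18.1 to 89.0 CPM on Day06 and a median of 9.05 CPM in siRNA cells, where its 1 tested gene Lyz2 was lower than on Day06 (-2.21 ± 0.61, adjusted p = 0.00196). The endothelial and muscle lists had median sums of 8.68 and 0 CPM in siRNA cells, and none of their genes passed the filter on low counts. In the fit without the filter the endothelial gene Tek was lower in siRNA cells than on Day06 (-1.75 ± 0.54, edgeR adjusted p = 0.0385), where 2.85% of all genes were lower.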
